A study of Rattus norvegicus with 35 samples.

Results

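Among 24 rat mammary tumours, the 8 with the highest signal of 3 genes of MHC class II were compared with the 8 with the lowest. The study hybridised total RNA of 35 samples, each to 1 oligonucleotide array of the RAE230A design, which reads a gene through a probe set of short probes and reports an intensity called its signal. The 24 tumours are labelled as frozen rat mammary tumours induced by the carcinogen N-methyl-N-nitrosourea (NMU), and the other 11 samples are labelled as normal mammary glands, with no treatment named. Strain, age, time after NMU, batch and animal are not given in the labels, so tumours may share an animal, and the p-values measure only the spread between these samples. A normal gland is titled Young, with no age stated. Per array, the score was the mean log2 signal of Cd74, RT1-Db1 and RT1-Bb, each read by its brightest probe set and floored at a signal of 41.6. The tumours were thus chosen by the measured class II signal itself: 16 of the 24 tumours entered the comparison, the 8 tumours between them were kept for a separate look, and values of the 3 score genes are given as a description with no test.

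MHC class II molecules are paired alpha and beta chains that carry peptides taken up from outside the cell and show them to CD4+ T cells. Dendritic cells, macrophages and B cells make them constitutively, and other cells, epithelium among them, can make them under interferon gamma through the coactivator CIITA. Cd74 is the invariant chain that escorts class II through the cell, RT1-Ba and RT1-Bb are the chains of the rat molecule equivalent to mouse I-A, RT1-Da and RT1-Db1 those of the molecule equivalent to I-E, and RT1-DMa with RT1-DMb load the peptide. A tumour sample holds RNA of every cell in it, so more cells of a type and more RNA per cell cannot be told apart in these values.

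The promoters of the 4 chain genes are shown because these genes carry the comparison: 2 of them define the groups and the other 2 follow them. Class II promoters are known for an X box and a Y box close to the start of transcription, bound by the RFX and NF-Y factors. In the RefSeq promoter table of assembly GRCr8 the letters of the Y box searched for were CTGATTGG on either strand, and each of the 4 promoters held them 1 time, on the strand of the gene. Of all 33469 promoters of 300 bases in the table, 3.5% held these letters. The core searched for in the X box, GCAAC on either strand, stood in 3 of the 4 and in 35.1% of all promoters. The stretch from 125 to 26 bases before the start is printed 5′ to 3′ on the strand of the gene, with both matches in capitals.
RT1-Ba: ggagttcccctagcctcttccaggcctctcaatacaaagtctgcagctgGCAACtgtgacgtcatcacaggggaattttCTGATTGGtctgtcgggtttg
RT1-Bb: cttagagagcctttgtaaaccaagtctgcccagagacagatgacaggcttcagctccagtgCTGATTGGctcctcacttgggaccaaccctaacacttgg
RT1-Da: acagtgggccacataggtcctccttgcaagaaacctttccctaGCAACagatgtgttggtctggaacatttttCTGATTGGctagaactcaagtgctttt
RT1-Db1: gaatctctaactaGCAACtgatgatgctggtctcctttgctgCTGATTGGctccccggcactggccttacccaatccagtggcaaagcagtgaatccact
The stretches lie at chr20:4576932-4577031 (RT1-Ba, plus strand), chr20:4604144-4604243 (RT1-Bb, minus strand), chr20:4515290-4515389 (RT1-Da, plus strand) and chr20:4560188-4560287 (RT1-Db1, minus strand). The first base of CTGATTGG stood 46 bases before the start in RT1-Ba, 64 in RT1-Bb, 52 in RT1-Da and 83 in RT1-Db1. The promoters of RT1-DMa and Cd74 did not hold these letters in their 300 bases, although both held CCAAT, the core of the Y box, which 37.5% of all promoters hold on either strand. Outside class II, the promoter of the called gene Irf8 also held CTGATTGG, 132 bases before its start, and those of Cd3g, Coro1a and Rgs10 did not. The promoter table had no entry for the called genes RT1-DMb, Serping1, Ptprcap, Il2rb and Lsp1, so these were not searched. A match is a description of the letters and was not tested as a site of binding.

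The 8 high tumours were X25L, X6, X26, X8, X22L, X27, X18 and X15, with scores of 9.85, 9.85, 10.39, 10.40, 10.49, 10.54, 10.77 and 11.13 on the log2 scale. The 8 low tumours were X20, X29.2, X32, X19, X21, X29.1, X2 and X4, with scores of 8.49, 8.57, 8.75, 8.82, 8.85, 9.17, 9.35 and 9.50. The groups meet closely: X4, the last of the low tumours, lay next to X17 at 9.51, and X25L and X6 lay next to X14 and X28, both at 9.78. Cd74 signal ran from 2363 through a median of 3745 to 5306 in the high tumours and from 986 through 1431 to 2088 in the low ones. RT1-Db1 signal ran from 516 through 947 to 1503 and from 221 through 293 to 461, and RT1-Bb signal from 568 through 815 to 1507 and from 200.1 through 244 to 398. All 3 genes separated the groups without overlap, as the choice of tumours favours. A second probe set of RT1-Db1 and one of RT1-Bb had medians under the floor in both groups (23.2 and 35.1 in the high tumours) and show nothing at this level. The 11 normal glands spanned scores from 9.36 (Young) to 11.50 (NewN6), with a median of 10.25, so the 8 low tumours lay below every gland but Young and the 8 high tumours within the range of the glands.

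**Figure D1:**
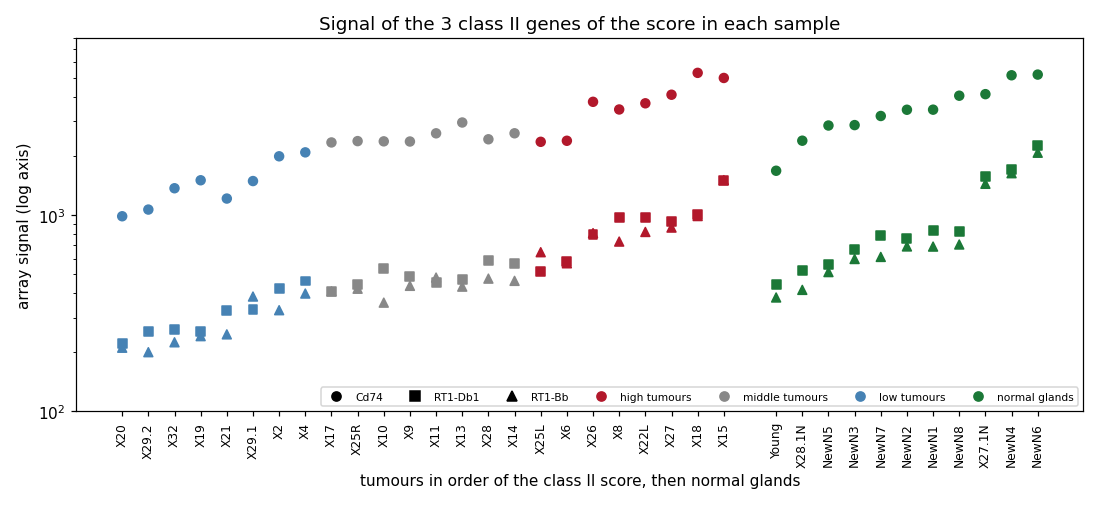
Array signal (log axis) of Cd74, RT1-Db1 and RT1-Bb, one column of 3 symbols per sample, with the 24 tumours in order of the class II score and then the 11 normal glands. Cd74 goes from 986 in X20 to 5306 in X18, and the 3 glands X27.1N, NewN4 and NewN6 stand above the other glands in RT1-Db1 and RT1-Bb.

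None of 5 measures of array quality passed a test between the groups. The 90th percentile of signal averaged 614 ± 42.9 in high and 568 ± 50.3 in low tumours (SD, n = 8 each, exact two-sided permutation p = 0.0696, adjusted p = 0.348 over 5 measures), and its part in the results was not tested beyond the fit that includes it, given below with the counts. The 3' to 5' ratio of Gapdh probe sets, a sign of RNA degradation when high, averaged 1.03 ± 0.120 and 1.01 ± 0.0492, and that of Actb 1.27 ± 0.149 and 1.26 ± 0.165. The title number 29 is shared by 2 low tumours, X29.1 and X29.2, and 25 by X25L (high) and X25R (between the groups). X22L stood apart among the high tumours, with little RNA of epithelial genes: its Krt8 signal was 75.7, against medians of 2323 in the high and 2128 in the low tumours. The list medians and genes that moved most without it are given both ways.

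The comparison asked which other genes differ between tumours rich and poor in class II. Of 10408 other genes tested, 11 were called higher in the high tumours (0.106%) and 0 were called lower, at a Benjamini-Hochberg adjusted p under 0.05 from limma. They were 3 class II genes (RT1-Ba, RT1-Da, RT1-DMb), the leukocyte genes Cd3g, Ptprcap, Coro1a, Lsp1, Il2rb and Irf8, the signalling regulator Rgs10 and the complement inhibitor Serping1. At an unadjusted p under 0.05, 687 genes were higher (6.6%) and 214 lower (2.06%), and 53.5% of all genes had a difference above 0. The number called was small and moved with the samples used: it lay between 0 (without the low tumour X19) and 39 (without the high tumour X18) as each tumour was left out in turn, and was 12 without X22L. It was also 0 with the floor at the 25th percentile of signal (82.2), without the trend and robust options of limma, with Ptprc as a covariate and with the 90th percentile as a covariate, where 766, 911, 298 and 845 genes had an unadjusted p under 0.05. With the title number as a random block 2 of the 11 calls remained (Cd3g and RT1-DMb), and 1 each with the groups chosen again on all probe sets of the 3 genes or on a score without RT1-Bb. Tumours left out that moved the number by over 1.5 times, beside X18 and X19, were X21 (1), X27 (3), X20 (4), X29.1 (5), X25L, X26 and X32 (6 each) and X15 and X29.2 (7 each). All 11 genes stayed higher in the high tumours in every alternative tried for them, and Cd3g and RT1-DMb were called most often, in 26 of their alternatives. Some alternatives are the same fit counted again, such as those with X22L or X29.2 left out. The others reuse most of the tumours in which the 11 genes were called, so the kept direction is not independent support. With Ptprc as a covariate the differences were 1.35 for RT1-Ba, 1.01 for RT1-Da, 0.92 for RT1-DMb and 1.68 for Serping1, and 0.74 for Cd3g, 0.73 for Ptprcap and 0.60 for Coro1a. With the score as a continuous measure over all 24 tumours, which share 16 arrays with the comparison of the groups, 32 genes had a called positive slope (0.307%) and 0 a negative one. Of the 11 genes 10 were among them, which is 90.9% of the 11 and 31.2% of the 32, and the exception was Lsp1.

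Of all genes tested, the class II chains RT1-Da and RT1-Ba had the smallest adjusted p of the slope over the 24 tumours (2.58e-11 and 6.74e-10). Class II chains of one kind are related in sequence, so a probe set may read more than 1 of them. RT1-Ba, the alpha chain whose partner RT1-Bb is in the score, had a signal from 932 through a median of 1229 to 2093 in the high tumours and from 267 through 410.5 to 788 in the low ones. Every high tumour lay above every low tumour, and the gene rose by 1.52 on the log2 scale (SE 0.23, adjusted p = 0.0186), a ratio of 2.87. Its second probe set gave 1.32 (SE 0.21). RT1-Da, the alpha chain that pairs with RT1-Db1, went from 746 through 1152 to 1953 in the low tumours and from 2166 through 3387 to 4412 in the high ones. It too did not overlap, and rose by 1.33 (SE 0.21, adjusted p = 0.0186). RT1-DMb, a chain of the molecule that loads peptide, ran from 337 through 419 to 597 and from 655 through 941 to 1428 and rose by 1.13 (SE 0.17, adjusted p = 0.0186), again without overlap.

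Of 18 measured genes of class II and its loading, these 3 rose, 0 fell and 15 did not pass, with a median difference of 0.28 against 0.02 over all genes. Cathepsin S (Ctss), which trims the invariant chain, had medians of 988 and 519.5 and a difference of 1.11 (adjusted p = 0.0849). Ifi30, a lysosomal reductase that opens antigen for loading, differed by 0.65 (adjusted p = 0.0849), and RT1-DMa by 0.82 (adjusted p = 0.187). All 3 had called slopes over the 24 tumours: 0.73 for Ctss, 0.36 for Ifi30 and 0.50 for RT1-DMa, in log2 signal per log2 unit of score. Genes of the transcription machinery differed less. Ciita, the coactivator of class II, had medians of 126 and 110 with overlapping ranges and a difference of 0.20 (SE 0.13, adjusted p = 0.734). Rfx5, a subunit of the RFX factor that binds the X box, had medians of 318 and 322 and a difference of 0.06 (SE 0.10).

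**Figure D2:**
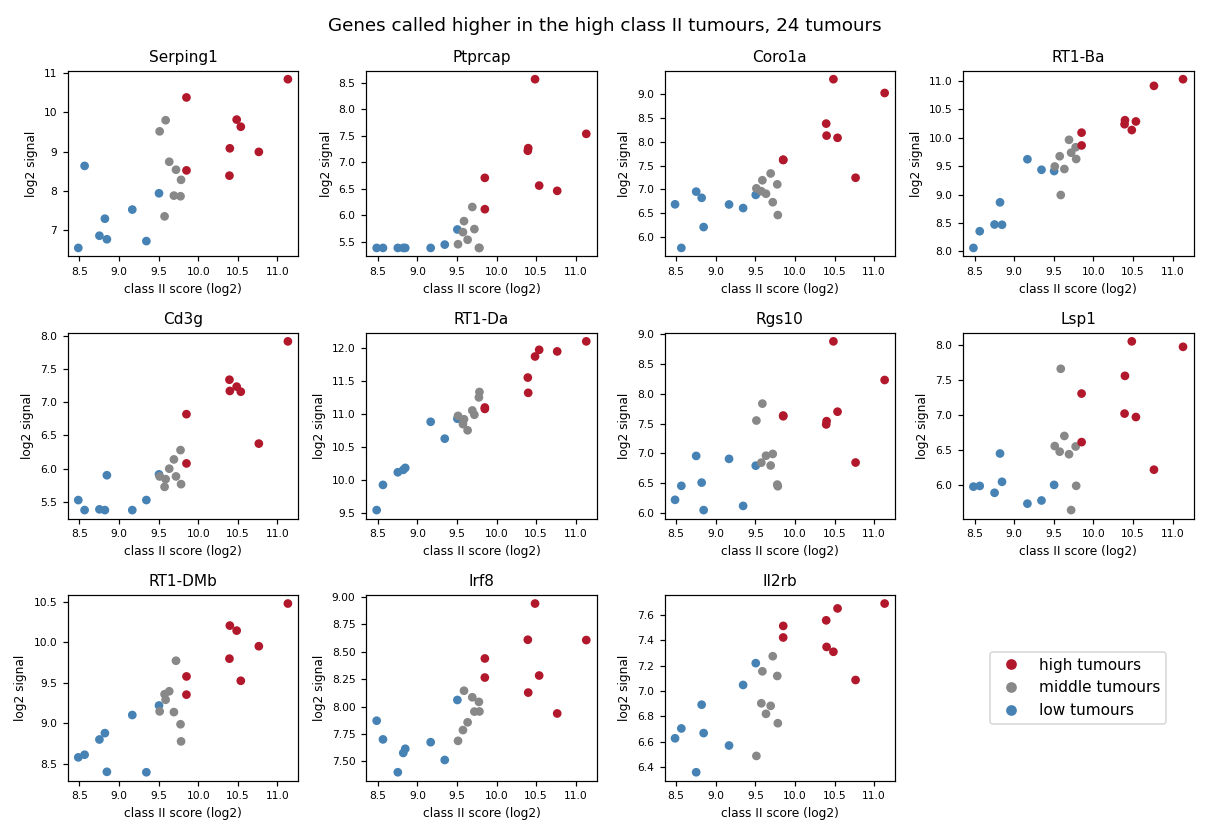
Log2 signal of each of the 11 called genes (y) against the class II score (x) in the 24 tumours, one point per tumour, coloured by group. RT1-Da and RT1-Ba climb along the whole range, while Ptprcap and Cd3g lie near the floor in the low tumours and spread upward in the high ones.

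Leukocyte genes made up most of the remaining calls. Ptprcap, a protein that associates with the CD45 phosphatase of lymphocytes, was at or under the floor in 6 of 8 low tumours, whose signal ran from 2.76 through 31.7 to 53.0. In the high tumours it ran from 69.2 through 127 to 381, and it rose by 1.62 on the floored scale (SE 0.26, adjusted p = 0.0186). Coro1a (coronin 1A, an actin regulator of leukocytes) ran from 54.5 through 103 to 124 in the low and from 152 through 276 to 639.5 in the high tumours and rose by 1.60 (SE 0.27, adjusted p = 0.0241). Neither gene overlapped between the groups. Lsp1, a leukocyte actin-binding protein, ran from 53.4 through 63.4 to 87.7 in the low and from 74.7 through 144 to 265 in the high tumours and rose by 1.23 (SE 0.22, adjusted p = 0.0432). Rgs10, a regulator of G protein signalling, ran from 66.0 through 89.3 to 124 and from 115 through 198 to 472 and rose by 1.24 (SE 0.23, adjusted p = 0.0439). In each of these 2, 7 of 8 high tumours lay above all low ones, and the lone exception was X18.

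Of 21 genes shared by leukocytes, 3 rose (Ptprcap, Coro1a and Lsp1), 0 fell and 18 did not pass, with a median difference of 0.72. The difference was above 0 in 20 of the 21, and 17 had an unadjusted p under 0.05. Ptprc itself, the CD45 phosphatase, had medians of 215 and 75.8 and differed by 1.26 (adjusted p = 0.0849). Rac2, a GTPase of blood cells, had the largest difference of the list (1.90, adjusted p = 0.148), and Pfn1 (profilin, present in all cells) differed by 0.38. Over the 24 tumours 7 of the 21 had a called slope, among them Ptprc (0.76), Cd37 (0.76), Laptm5 (0.73) and Cd53 (0.68). The summed signal of the list ran from 5475 to 12712 in the high and from 4018 to 6018 in the low tumours, and no member was at the floor in all tumours of a group.

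T cell genes gave a mixed picture. Cd3g, a chain of the T cell receptor complex, ran from 31.3 through 44.1 to 60.4 in the low and from 67.6 through 143 to 241 in the high tumours. The groups did not overlap, and Cd3g rose by 1.46 (SE 0.21, adjusted p = 0.0186). Il2rb, a chain of the interleukin 2 and 15 receptors, ran from 82.1 through 103 to 149 in the low and from 136 through 177 to 207 in the high tumours and rose by 0.69 (SE 0.12, adjusted p = 0.0425). Of 22 measured T cell genes these 2 rose, 0 fell and 20 did not pass, with a median of 0.18. Il2rg, the shared chain of these receptors, differed by 1.27 without overlap (adjusted p = 0.0849), and Lck, a kinase of the T cell receptor, by 0.46 (adjusted p = 0.275), each with a called slope over the 24 tumours. Cd4 (0.19), Cd2 (-0.01) and Cd8a (0.07) did not pass. Cd2 may read T cells poorly here: in the normal glands it ran from 222 to 477, where Cd3g ran from 51.8 to 1639. Cd3d, Cd8a and Il7r were at the floor in all 8 low tumours, whereas Cd3d reached 108 in the high ones (difference 0.60, adjusted p = 0.460). Among the high tumours Cd8a stood above the floor in X26 alone (61.6), so its difference shows little.

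Genes of cytotoxic cells gave no call. Of 15 genes of cytotoxic and NK cells 0 rose, 0 fell and the median difference was -0.02. Perforin (Prf1) had medians of 162 and 172 and granzyme B (Gzmb) 170 and 189. Ccl5, a chemokine of activated T cells, had medians of 262 and 150.5 and differed by 0.59 (adjusted p = 0.482), with a called slope over the 24 tumours, while granzyme M (Gzmm) differed by 0.36 (adjusted p = 0.613). Of 3 measured B cell genes 0 were called. Cd79b, a signalling chain of the B cell receptor, lay at or under the floor in all 16 tumours, at most 30.1, Cd40 differed by 0.06 and Cxcr5 by -0.18.

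Macrophage genes had differences above 0 for the most part and no call in the comparison of the groups. Of 19 genes 0 rose, 0 fell, 16 differences were above 0 and 13 had an unadjusted p under 0.05, with a median of 0.73. C1qa and C1qc, chains of C1q made by macrophages, differed by 1.29 and 1.19 (both adjusted p = 0.143), Lyz2 (lysozyme) by 1.24 (adjusted p = 0.0849), Clec4a3 (a myeloid lectin) by 1.78 (adjusted p = 0.253) and Csf1r (the receptor that maintains macrophages) by 0.84 (adjusted p = 0.129). The ranges of C1qc, Csf1r and Fcer1g did not overlap. Over the 24 tumours 6 of the 19 had a called slope: Lyz2, C1qa, C1qc, Csf1r, Tyrobp (a signalling adaptor, 0.62) and Clec4a3. X22L had the highest C1qc signal of the high tumours (2850), and without it the median of the list was 0.63. Aif1, a macrophage marker, gave discordant readings by its probe sets. The brighter one differed by -0.13 (adjusted p = 0.800). The second ran from 80.2 through 109 to 130.0 in the low and from 167 through 254 to 683 in the high tumours and was called at 1.41 (SE 0.22, adjusted p = 0.0186).

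Of 12 genes of dendritic cells 0 were called, with a median of 0.09, and 0.05 without X22L. Clec10a, a lectin of dendritic cells and macrophages, was at the floor in all 8 low tumours and ran from 24.2 through 107 to 358 in the high ones (difference 1.42 on the floored scale, adjusted p = 0.385). Ccl17, a chemokine of dendritic cells, differed by 0.57 (adjusted p = 0.661) and Id2 by 0.12. Of 18 genes of mast cells and granulocytes 0 were called and the median was 0.00. The mast cell proteases Mcpt8 and Mcpt10 differed by 0.54 and 0.53 with wide overlap, and Tpsb2 (tryptase) by -0.09. Mcpt4 and S100a8 were at the floor in all 16 tumours. The part of these cell types in the class II difference was not tested beyond the fit with Ptprc, under which the median was 0.15 for the class II list, 0.10 for the macrophage list and 0.15 for the shared leukocyte list, to which Ptprc itself belongs.

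**Figure D3:**
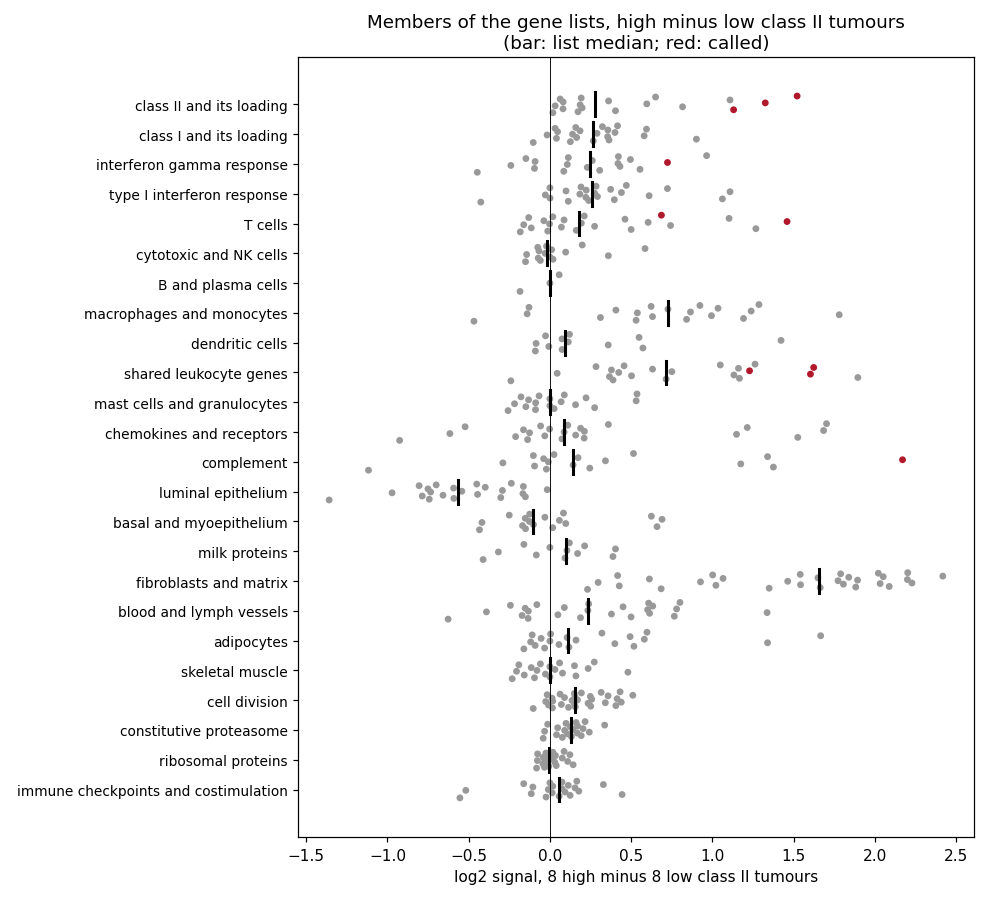
Difference in log2 signal between the 8 high and 8 low tumours (x) for every measured member of 24 gene lists (rows), one point per gene, with a black bar at the list median and called genes in red. The lists of macrophages (median 0.73), shared leukocyte genes (0.72) and fibroblasts and matrix (1.66) lie to the right of 0, and luminal epithelium (-0.57) lies to the left.

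Interferon genes were measured because interferon gamma is the known inducer of class II. Of 18 genes of the interferon gamma response, Irf8 rose, 0 fell and 17 did not pass, with a median of 0.25. Irf8, a transcription factor of myeloid and B cells that interferon gamma also induces, ran from 169 through 200.3 to 267 in the low and from 245 through 329 to 491 in the high tumours and rose by 0.72 (SE 0.13, adjusted p = 0.0432). Ifng had medians of 59.5 in the high and 67.4 in the low tumours, a difference of -0.24 (SE 0.16, adjusted p = 0.726). The induced chemokine Cxcl9 differed by 0.96 with a wide spread (SE 0.57, adjusted p = 0.696), the transcription factor Irf1 by 0.31 (adjusted p = 0.664) and the receptor chain Ifngr1 by 0.42 (adjusted p = 0.696). Of 22 genes of the type I interferon response 0 were called, with a median of 0.26. Ifitm1 (1.11) and Mx1 (1.06), both antiviral effectors, had the largest differences and Ifitm3 differed by 0.11.

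MHC class I shows peptides from inside the cell to CD8+ T cells. Of 21 genes of class I and its loading 0 rose, 0 fell and the median was 0.27. B2m, the light chain of every class I molecule, had medians of 6956 and 7079 and a difference of 0.05 (SE 0.11, adjusted p = 0.954). Tap1, a subunit of the peptide transporter, had medians of 349 and 216 (difference 0.58, adjusted p = 0.357), RT1-N3 differed by 0.59 (adjusted p = 0.525) and Fcgrt, the neonatal Fc receptor, by 0.90 (adjusted p = 0.633). The class I genes of the rat are close copies of each other, so single RT1 values are uncertain as to the gene.

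Serping1, the C1 inhibitor that restrains complement and contact activation, had the largest called difference. Its signal ran from 93.6 through 136 to 398 in the low and from 335 through 669 to 1839 in the high tumours, and 6 of 8 high tumours lay above all low ones. It rose by 2.17 (SE 0.37, adjusted p = 0.0267), a ratio of 4.50. Of 17 measured complement genes it was the 1 that rose, 0 fell and the median was 0.14. C1s and C1r, the proteases that C1 inhibitor blocks, differed by 1.38 (adjusted p = 0.0849) and 1.18 (adjusted p = 0.135), and Cfd (adipsin) by 1.34 (adjusted p = 0.636). Clu (clusterin) differed by -0.09.

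Connective tissue genes showed the largest differences of any list and the widest spread. Of 30 genes of fibroblasts and matrix 0 were called, yet all 30 differences were above 0, 25 had an unadjusted p under 0.05 and the median was 1.66. Dcn (decorin) ran from 69.5 through 2061 to 5647 in the high and from 50.1 through 213 to 1737 in the low tumours, a difference of 2.42 (SE 0.92, adjusted p = 0.525). The ranges overlap widely, as they do for Loxl1 (a collagen cross-linking enzyme, 2.23), Col1a1 (2.20), Col3a1 (1.84) and Mgp (matrix Gla protein, 1.46). Without X22L the median was 1.34, with Ptprc as a covariate 0.39, and 0 members had a called slope over the 24 tumours. The summed signal of the list ran from 7195 to 99853 in the high and from 4715 to 28443 in the low tumours. X18, next to the top by score (10.77), had a list median of 7.33 on the log2 scale, below the median of the low tumours (7.73).

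Luminal epithelial genes lay lower in the high tumours, without a call. Of 22 luminal genes 0 were called, all 22 differences were below 0 and the median was -0.57. Without X22L, the lowest of the 16 tumours for this list, the median was -0.14, and with Ptprc as a covariate it was 0.20, on the other side of 0. Krt19 ran from 73.3 through 2237 to 3697 in the high and from 3172 through 3774 to 7517 in the low tumours (difference -1.36, adjusted p = 0.596, and -0.73 without X22L), and Krt7 differed by -0.97 (adjusted p = 0.597, and -0.62 without X22L). These are keratins of simple epithelium. Spint2 and Epcam differed by -0.59 and -0.81, and by -0.17 and -0.22 without X22L. Of 17 basal genes 0 were called, with a median of -0.10 that was 0.23 without X22L and so has no settled direction. Cav1 (0.69), Mme (0.66) and Krt5 (-0.12, or 0.39 without X22L) did not pass.

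**Figure D4:**
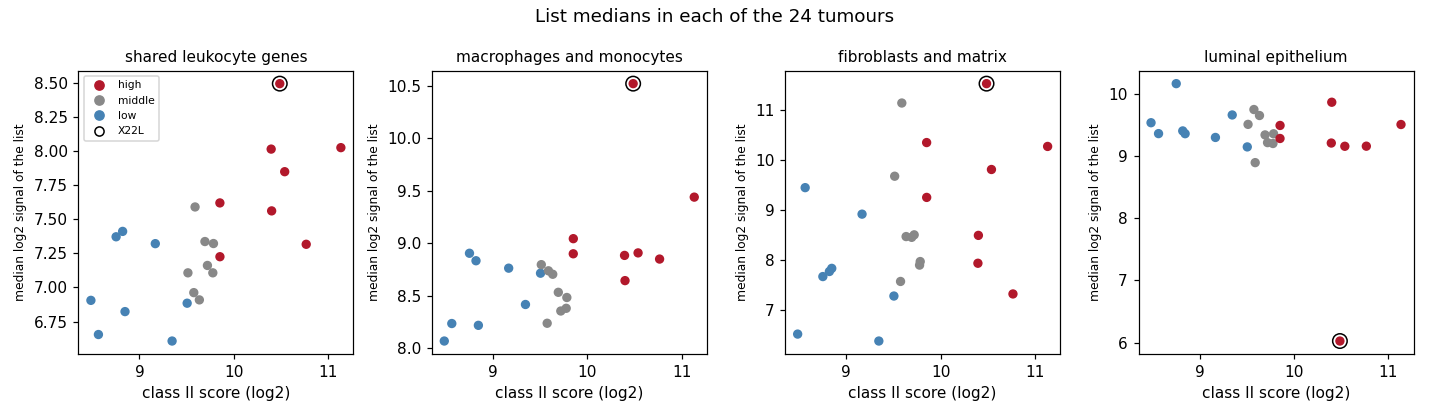
Median log2 signal of 4 gene lists (y) against the class II score (x) in the 24 tumours, coloured by group, with X22L circled. X22L has the highest medians for leukocyte, macrophage (10.52) and matrix genes (11.53) and the lowest for luminal genes (6.03), and the matrix medians of the high tumours span 7.33 to 11.53.

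Other cell types and processes gave 0 calls each. Of 24 vessel genes the median was 0.24. Plvap, a protein of fenestrated endothelium, had medians of 304 and 128 and differed by 1.34 (adjusted p = 0.110), Ets1 by 0.80 (adjusted p = 0.213), the VEGF receptor Kdr by 0.78 (adjusted p = 0.324) and Podxl by -0.39. Of 23 chemokines and receptors the median was 0.09, and 0.02 without X22L. Cxcl13, which attracts B cells, ran from 224 through 691 to 4771 in the high and from 42.6 through 226 to 521 in the low tumours (difference 1.70, adjusted p = 0.503), Ccl2, which attracts monocytes, differed by 1.69 (adjusted p = 0.534) and Cxcl12 by 0.19. The neutrophil chemokine Cxcl1 lay lower in the high tumours (-0.93, adjusted p = 0.530). Of 21 checkpoint and cytokine genes the median was 0.06, Tnf differed by -0.55 (adjusted p = 0.506) and Il18 by -0.52 (adjusted p = 0.497).

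Lists of general cell content had medians from -0.01 to 0.16. Of 30 cell division genes the median was 0.16 (0.09 without X22L), with Mki67 at 0.51, Mcm6 at 0.44 and Tubb5 at 0.41. Of 20 constitutive proteasome genes it was 0.13, with Psmc5 at 0.34, Psma7 at 0.24 and Psmb3 at 0.08. Of 21 ribosomal protein genes it was -0.01, with Rpl35 at 0.14, Rpl30 at 0.12 and Rpl7a at -0.02. Of 20 adipocyte genes it was 0.11, with Lpl at 1.67 (adjusted p = 0.450) and Fasn at -0.12, and of 12 milk protein genes 0.10, with Folr1 at -0.41, Glycam1 at 0.40 and the casein Csn3 at -0.08. Of 19 skeletal muscle genes it was 0.00, with Tpm2 at 0.48, Acta1 at 0.27 and Tpm1 at -0.11. None of these differences passed.

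The ranges of 14 genes (0.135%) did not overlap, all with the high tumours above. Besides those given above, they include Mpeg1 (a macrophage protein, 477 to 1549 above 250.4 to 457) and Ms4a6bl1 (169 to 1018 above 82.3 to 155), with differences of 1.07 and 1.43 (adjusted p = 0.0681 and 0.0740), and Snx15 (a sorting nexin, 0.60, adjusted p = 0.403). These 3 were named after their values were seen.

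The 8 tumours between the groups were not used by the rule on groups, but their scores span only 9.51 to 9.78. By limma 0 genes had a called slope on the score there (1943 genes at an unadjusted p under 0.05), and of the 11 called genes 5 had a positive slope, where 44.9% of all genes did. In log2 signal per log2 unit of score, the 5 were RT1-Ba (1.57, SE 0.96), RT1-Da (1.49, SE 0.54), Il2rb (1.06), Irf8 (0.84) and Cd3g (0.78). The class II gene RT1-DMb had a negative slope (-0.92, SE 1.065), as did Coro1a (-1.035) and Ptprcap (-0.44). Slopes were most negative for Serping1 (-3.97, SE 2.65), Rgs10 (-3.87, SE 1.14) and Lsp1 (-3.00, SE 1.83).

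The 11 normal glands gave a wider range of the score and were not used to choose the groups. There 693 genes had a called positive slope (6.66%) and 455 a negative one (4.37%). Of the 11 genes called in tumours, 10 had a positive slope, where 44.6% of all genes did, and 9 were called. RT1-Ba had a slope of 1.17 (SE 0.11), RT1-Da 0.79 (SE 0.05) and RT1-DMb 0.84 (SE 0.10) per unit of score in the glands, against 1.04, 0.92 and 0.71 over the tumours. For these 3 the interaction with tissue did not pass (adjusted p = 0.701, 0.524 and 0.751). Most of the range in the glands comes from X27.1N, NewN4 and NewN6, whose scores were 11.04, 11.25 and 11.50, against at most 10.38 in the 8 others. Cd3g signal was 1077, 894 and 1639 in those 3 glands and 51.8 to 75.8 in the others. Without them 70 genes had a called positive slope and 54 a negative one, and 32 of the 1148 calls remained. Of the 11 genes, 7 then had a positive slope, where 46.65% of all genes did. Called among them were 3: RT1-Ba (1.60), RT1-Da (0.99) and Coro1a (0.63). The slope of Irf8 went from 1.47 to -0.44.

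The slope on class II was tested for a difference between tumours and glands with an interaction over all 35 arrays. The slope was higher in tumours for 173 genes (1.66%) and lower for 246 (2.36%). After quantile normalization the counts were 134 and 305. Lymphocyte genes stood among the latter: 13 of 22 T cell genes and 10 of 21 shared leukocyte genes had a lower slope in tumours, and 0 of either list a higher one. Cd3g had a slope of 2.69 in the glands and 0.90 in the tumours (adjusted p = 0.000216), Ptprcap 2.68 and 0.97 (adjusted p = 0.00637) and Irf8 1.47 and 0.41 (adjusted p = 0.00565). Ciita, with a slope of 0.17 in tumours, had a slope of 0.87 in the glands (adjusted p = 0.0181 for the difference). Serping1 did the opposite, with 1.23 in tumours and -0.29 in the glands (adjusted p = 0.0217), where its signal was never below 1238. The difference of 19 macrophage genes was called in neither direction. Without the 3 glands rich in lymphocyte genes 97 genes were higher and 49 lower, 17 of the 419 calls remained, and Cd3g (adjusted p = 0.447), Ptprcap (0.340), Irf8 (0.0856), Ciita (0.327) and Serping1 (0.520) were not called. The difference of slopes, tumours minus glands, then turned from -1.79 to 0.55 for Cd3g, from -1.71 to 0.98 for Ptprcap, from -1.06 to 0.85 for Irf8 and from -0.70 to 0.51 for Ciita, while Serping1 went from 1.52 to 1.06. The lower slopes of lymphocyte genes in tumours thus rest on these 3 glands.

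**Figure D5:**
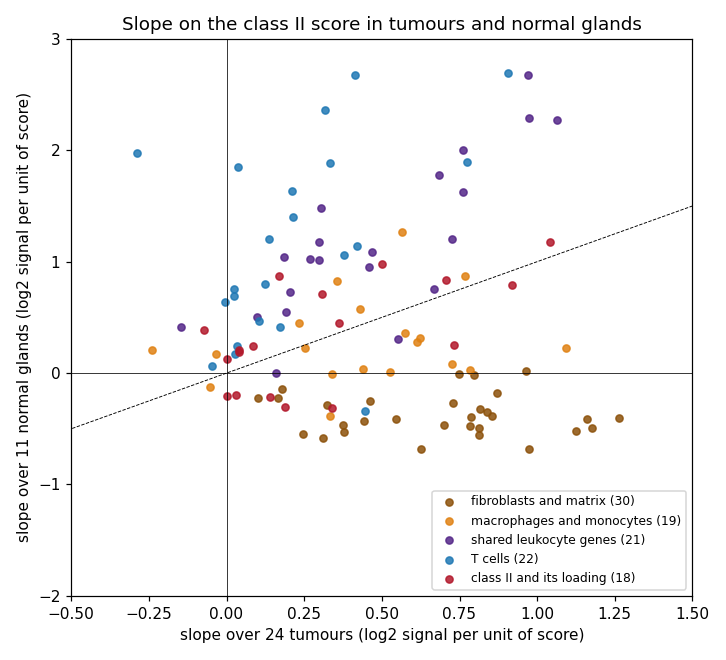
Slope of log2 signal on the class II score over 11 normal glands (y) against that over 24 tumours (x), in log2 signal per log2 unit of score, one point per gene of 5 lists, with a dashed line at equal slopes. T cell and shared leukocyte genes lie mostly above the line (Cd3g at 2.69 against 0.90), class II genes near it and matrix genes below 0 in the glands.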

How the data were processed

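Per the labels, total RNA of 35 rat samples was hybridised to RAE230A arrays, and the deposited table holds 1 intensity per probe set and array. The scale and the software that made it: not given in the sources used here. Array medians were alike, 0.649% of values equal 1, and no depth exists for arrays, whose number limits the precision. From 15923 probe sets 57 controls were removed. Signals were floored at their 10th percentile (41.6) and log2-transformed. Of 15866 probe sets 12783 carry 1 gene symbol, and each of 10411 genes was read by its brightest probe set. Groups were compared with limma 3.58.1 (lmFit, eBayes with trend and robust, 14 residual degrees of freedom, R 4.3.3) over the 15861 probe sets outside the score, Benjamini-Hochberg adjusted over all, after a test on simulated data. Named are the 15 largest rises and 10 largest falls among the called genes and, per list, the 2 largest differences and the brightest gene. Other list members are examples chosen after their values were seen. The members and the 24 lists were chosen with earlier results of these data known. Alternatives covered scaling, floor, filter, moderation, weights, block, covariates, the score and each tumour left out. Promoters are RefSeq, GRCr8.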

Additional observations from a re-analysis of the deposited data

Results flagged for a closer look

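In 18 of the named genes the slope on the class II score differed between tumours and normal glands by the interaction test. Over all 10408 genes it did so in 419, with 173 higher in tumours (1.66%) and 246 lower (2.36%). The slope in tumours minus that in the glands, in log2 signal per log2 unit of score, was -1.03 for Ccl17, -1.25 for Cd37, -2.26 for Cd3d, -1.79 for Cd3g, -0.76 for Cd40, -1.10 for Cd53, -2.81 for Cd79b and -1.81 for Cd8a. It was -0.70 for Ciita, -1.31 for Coro1a, -3.04 for Glycam1, -0.78 for Gzmm, -0.72 for Il2rb, -1.06 for Irf8, -1.55 for Lck and -1.71 for Ptprcap. It was above 0 for Clec10a (1.48) and Serping1 (1.52). The floor limits the slope in tumours for Cd79b, at or under it in all 16 compared tumours. It also does so for Cd3d, Cd8a and Clec10a, at or under it in all 8 low tumours. Without NewN4, NewN6 and X27.1N, 17 of the 419 calls remained, none of them among these 18, and the sign turned in 14 of the 18, for example to 0.35 for Coro1a, 0.61 for Glycam1 and 0.71 for Ccl17.

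Single tumours stood far from the other 7 of their group in 22 cases. The 22 cases come from all named genes, each checked in both groups. By the 95% critical value used, chance marks about 1 group in 20. The 22 cases were not tested against this rate. This rate need not hold for genes mostly at the floor in the group concerned (Rpl30, Acta1, Cd8a, Ptprcap). X22L did so in 8 genes, with signals of 98.5 for Epcam, 73.3 for Krt19, 141 for Krt5, 57.9 for Krt7, 75.7 for Krt8 and 252 for Spint2, the lowest of the high tumours, and of 2850 for C1qc and 67.5 for Rpl30, the highest of them.

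Among the other high tumours, X25L had 118 for Acta1, X15 had 263 for Ccl17 and 1009 for Plvap, and X26 had 61.6 for Cd8a, each the highest of its group, while X18 had the lowest Mgp signal (569.9). Among the low tumours X4 had 31.4 for Fcgrt, 47.3 for Kdr and 909 for Tubb5, the lowest, and 53.0 for Ptprcap, the highest. The low tumour X20 had 260 for Csn3 and X32 had 116 for Gzmb, the lowest of their group. X2 had 3344 for Fasn, X32 had 7517 for Krt19 and X19 had 87.7 for Lsp1, the highest.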

How the results depend on the processing

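The count of 11 genes called higher was 6 after quantile normalization, 0 with the floor at the 25th percentile, 5 over probe sets brighter than the median one, 0 without trend and robust moderation, 28 with array weights, 30 in a fit of all 24 tumours as 3 levels and 32 with the continuous score. It was 2 with the title number as a random block, 7 without X25R and X29.2, 1 with groups chosen again on all probe sets of the 3 genes, 1 with the score without RT1-Bb, 0 with Ptprc and 0 with the 90th percentile as a covariate. Leaving out each tumour gave 0 to 39 genes higher and 0 to 1 lower (1 without X29.2), and 1 gene was also called lower with 3 levels. The fit without X25R and X29.2 is the same as that without X29.2, because X25R is in neither group. Why these counts moved was not tested. Without NewN4, NewN6 and X27.1N the glands gave 70 and 54 genes and the interaction 97 and 49. Over the brighter probe sets list medians were 0.60 (class II) and -0.52 (checkpoints). That setting leaves out the dimmer members of a list, and the differences of single genes are the same there. With Ptprc as a covariate list medians moved to 0.10 (macrophages), 0.15 (shared leukocyte genes), 1.03 (milk proteins), 0.39 (matrix) and 0.15 (ribosomal proteins). The luminal median turned from -0.57 to 0.20 and the basal one from -0.10 to 0.36 with Ptprc, within the spread between tumours. Without the 3 glands the called slope in the glands turned to -0.44 for Irf8, -0.041 for Lsp1 and -0.0076 for Ptprcap. The called difference of slopes turned to 0.71 for Ccl17, 0.15 for Cd37, 0.41 for Cd3d, 0.55 for Cd3g, 0.50 for Cd53, 0.037 for Cd8a, 0.51 for Ciita, 0.35 for Coro1a, 0.61 for Glycam1, 0.20 for Gzmm, 0.35 for Il2rb, 0.85 for Irf8, 0.40 for Lck and 0.98 for Ptprcap. In these the alternative leaves out the glands with the highest scores. Tumours and glands share 6 title numbers. The deviations of same-numbered glands and tumours correlated between -0.17 and 0.25. Those of the same-numbered tumours X29.1 and X29.2 correlated at 0.356, and X25L and X25R at 0.039. Samples of different numbers were not set beside them, so these values cannot decide whether a number marks an animal. With the number as a random replicate block, chosen after seeing the data, the interaction gave 193 genes higher and 260 lower, and 417 of the 419 calls remained. In simulated data of the same size 50.6% of 1.5-fold and 83.2% of 2-fold changes were called. There the noise was normal and independent between probe sets, and 50 probe sets clear of the floor were changed at each fold size. More were changed than were called here, so these shares need not hold for the real tumours.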
